A study of Mus musculus with 6 samples.

Results

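The large proteoglycans of cartilage and the link proteins that anchor them were compared between label-retaining chondrocytes (LRCs) and non-LRCs of the mouse growth plate. These are 8 genes of the 23159 in the deposited count table, chosen by name. *Acan* (aggrecan), *Vcan* (versican), *Ncan* (neurocan) and *Bcan* (brevican) encode the lecticans, *Hapln1*, *Hapln3* and *Hapln4* encode link proteins, and *Hspg2* encodes perlecan. RNA came from 6 libraries, 1 of LRCs and 1 of non-LRCs from each of 3 independent experiments. All mice were Col2-Q mice, homozygous for Col2a1-tTA (inserted downstream of *Peli2*), TRE-H2B-GFP (in the *Col1a1* locus), Col2a1-creER and R26R-tdTomato. The *Col2a1* promoter thus drives tTA, which turns on the nuclear label, and creER, which turns on tdTomato. The paper also describes low H2B-EGFP in osteoblasts and osteocytes without Col2a1-tTA. The mice received doxycycline from P21 to P49, which stops tTA from driving new H2B-EGFP, and tamoxifen on P46 and P47, and were killed at P49. CD45-negative, tdTomato-positive cells of distal femur and proximal tibia growth plates were sorted into a GFP-high fraction (LRCs) and a GFP mid-to-low fraction (non-LRCs), the first from about 10000 and the second from about 50000 cells a library, pooled from several littermates. Both groups thus carried the same alleles, diet and drugs, and differed in retained label and in cell input.

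Aggrecan carries many chondroitin sulfate chains, which hold water and give cartilage its stiffness against compression. Its N-terminal domain binds hyaluronan, a long unsulfated polysaccharide, and link protein binds both partners and locks them together, so that many aggrecan molecules sit on each hyaluronan strand. Versican uses the same hyaluronan-binding fold in looser and embryonic connective tissue, neurocan and brevican are best known from brain, and perlecan is a heparan sulfate proteoglycan of basement membranes and of the pericellular matrix around chondrocytes.

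The genes lie in neighbouring pairs of a lectican and a link protein (GRCm38, GENCODE vM21). *Acan* (chromosome 7, 79053483 to 79115099, plus strand) and *Hapln3* (chromosome 7, 79115102 to 79131018, minus strand) converge with 2 bases between their annotated ends. *Hapln1* (chromosome 13, 89539796 to 89611652, plus strand) and *Vcan* (chromosome 13, 89655312 to 89742509, minus strand) are 43659 bases apart, also on opposite strands, with 0 annotated genes between them. *Hapln4* (chromosome 8, 70083457 to 70090862, plus strand) and *Ncan* (chromosome 8, 70093085 to 70120873, minus strand) are 2222 bases apart. *Bcan* (chromosome 3, 87987531 to 88000230, minus strand) lies next to *Hapln2*, a link protein of brain that had 0 counts in 5 libraries and 2 counts in the other. *Hspg2* lies alone on chromosome 4 (137468769 to 137570630, plus strand). The strand setting of the authors' counting is not given in the sources used here, so reads of *Vcan* cannot be told from those of the antisense gene *Gm4117* that overlaps it, reads of *Hapln1* from the pseudogene *Gm8546* on its opposite strand, nor reads running past the end of *Acan* from *Hapln3* reads.

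The promoter sequences of *Acan* and *Vcan* are shown because they are the most abundant lectican and the lectican with the largest positive fitted change. Each line gives the 250 bases upstream of the RefSeq start (GRCm38.p6), 5′ to 3′ on the strand of the gene. Capitals mark matches on either strand to the motifs searched, which were the SOX-type cores ACAATG and ACAAAG, the GC box GGGCGG, the TATA motif TATAAA and the CCAAT box CCAAT.
Acan, chr7:79052976-79053225, plus strand: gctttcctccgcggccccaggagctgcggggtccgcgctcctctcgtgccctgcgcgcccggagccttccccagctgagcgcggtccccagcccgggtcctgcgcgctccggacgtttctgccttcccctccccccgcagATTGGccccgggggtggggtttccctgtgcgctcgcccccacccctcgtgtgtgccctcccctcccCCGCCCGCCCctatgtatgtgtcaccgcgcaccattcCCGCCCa
Vcan, chr13:89742513-89742762, minus strand: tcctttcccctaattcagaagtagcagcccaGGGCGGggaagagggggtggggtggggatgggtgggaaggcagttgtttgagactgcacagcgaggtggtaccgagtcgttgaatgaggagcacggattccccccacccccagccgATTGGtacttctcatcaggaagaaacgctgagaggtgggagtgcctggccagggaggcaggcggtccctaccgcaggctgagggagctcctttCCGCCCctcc
The *Acan* window held 3 GC boxes, of which 2 overlap, and 1 CCAAT box, and the *Vcan* window 2 GC boxes and 1 CCAAT box. A GC box was found in 32.7% and a CCAAT box in 33.9% of all 32841 RefSeq windows of this length. Neither window held a SOX-type core (10.7% of windows for ACAATG and 16.5% for ACAAAG) or TATAAA (12.4%). The *Acan* window was 74.4% GC and the *Vcan* window 62.4%, against a median of 52.4% over all windows. Such matches describe letters only. Of the 8 genes, 7 had an entry in the RefSeq table.

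The libraries held 18943789 to 129559872 counts. The smallest was the LRC library of experiment 2, in which 1731 of the 13728 genes tested had 0 counts, against 4 to 365 in the other libraries. Chondrocyte markers were at 80608 to 217031 counts per 1000000 counts (CPM) in sum in LRCs and 127215 to 218730 CPM in non-LRCs. Of the 9 endothelial and mural markers, *Cdh5*, *Kdr* and *Emcn* had 0 counts in every library. The list summed to 455 to 1369 CPM, of which *Cspg4* gave 453 to 1368 CPM. Without *Cspg4* it summed to 0.574 to 2.79 CPM. Which cells the *Cspg4* RNA came from was not tested. Leukocyte and erythroid markers summed to 7.63 to 25.9 CPM, with *Hba-a1* at 0, and skeletal muscle markers to 5.62 to 13.96 CPM. Neural and glial markers summed to 86.6 to 290 CPM, of which *S100b*, a gene that chondrocytes also express, gave 78.3 to 273 CPM. In bulk RNA, fewer cells of a type and less RNA per cell cannot be told apart.

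Per base of transcript, link protein and aggrecan RNA exceeded all other genes of the family by more than the spread between libraries. In counts per 1000 bases of exon and 1000000 counts (RPKM), *Hapln1* was at 632 ± 138 in LRCs and 1035 ± 76.2 in non-LRCs, and *Acan* at 409 ± 164 and 561 ± 271 (mean ± s.d., *n*=3 libraries each). *Hapln1* was above *Acan* in all 3 libraries of each group, although in LRCs the ranges of the genes overlapped. Together they made up 96.7% to 99.0% of the summed RPKM of the 8 genes in each library. *Hspg2* followed at 14.3 RPKM in LRCs and 29.6 RPKM in non-LRCs, and *Hapln3* at 6.08 and 4.68 RPKM, with ranges that overlapped between these genes in LRCs and were apart in non-LRCs. *Vcan* came next, at 0.291 RPKM in LRCs and 0.0435 RPKM in non-LRCs. The ranges of *Vcan* and *Bcan* overlapped in both groups, as did those of *Bcan* and *Hapln4*, so that the order among these low genes was not resolved. *Ncan* had the lowest mean, at 0.0397 RPKM in LRCs and 0.0169 RPKM in non-LRCs, and its range overlapped that of *Hapln4* in LRCs.

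**Figure D1:**
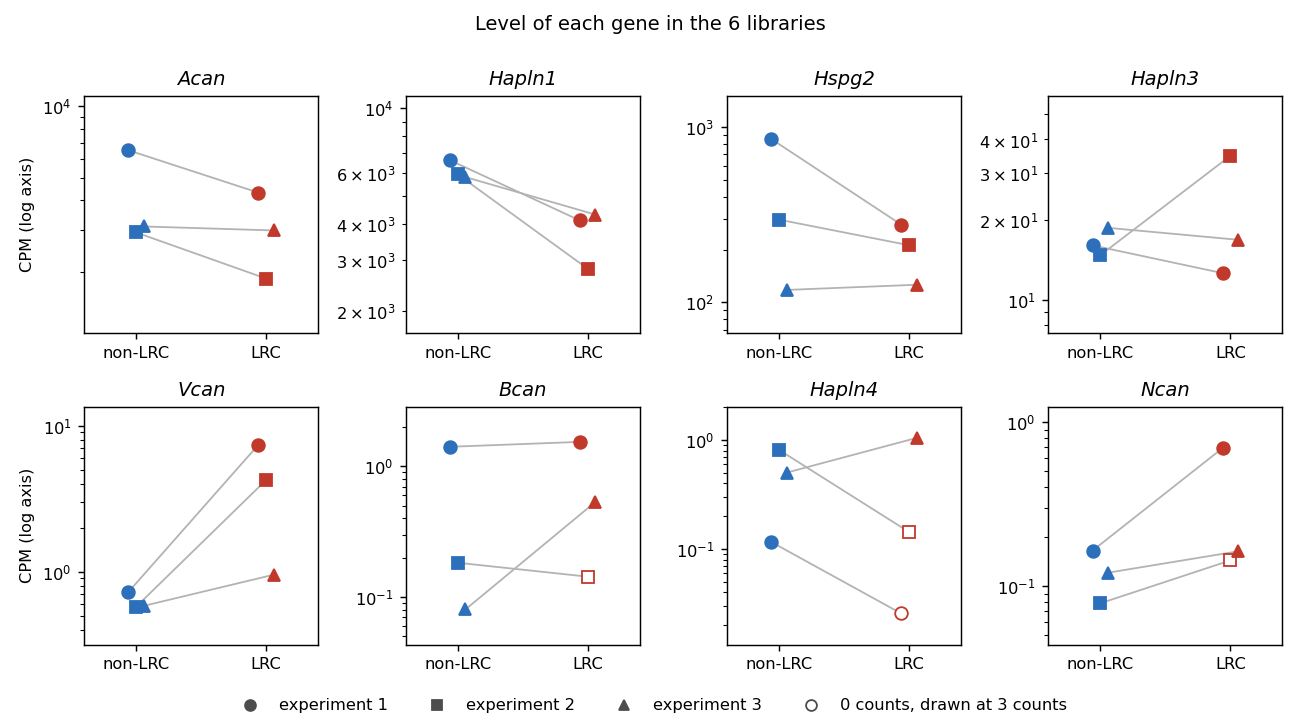
Level of the 8 genes in CPM (log axes that differ between panels) in the 3 non-LRC (blue) and 3 LRC (red) libraries, with a marker shape for each experiment and a grey line joining its 2 libraries. Open markers are libraries with 0 counts, drawn at the value of 3 counts. The LRC libraries lie below all non-LRC libraries for *Hapln1* and above all of them for *Vcan*.

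The filter on low counts left 7 of the 8 genes, which were tested in the fit over all 13728 genes, with the experiment as a block. None of the 7 had an adjusted p below 0.05 in edgeR (0 of 7, against 1.28% of all genes tested), while 2 of the 7, *Hapln1* and *Vcan*, had an unadjusted p below 0.05 (18.4% of all genes). The same 2 genes had an adjusted p below 0.05 with DESeq2 (12.3% of all genes) and with limma-voom (9.91% of all genes), both with the same block. *Hapln1* was among the 6.15% (DESeq2) and 4.69% (limma-voom) of genes called lower in LRCs, and *Vcan* among the 6.16% and 5.22% called higher. The fitted change was negative, that is lower in LRCs, for 4 genes and positive for 3, with a median log2 fold change of -0.43. Over all genes tested, 7690 were lower and 6038 higher, with a median of -0.10.

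*Hapln1* encodes the link protein of cartilage. In experiments 1, 2 and 3 it stood at 4099.9, 2793 and 4295.5 CPM in LRCs, against 6624.5, 5918 and 5789 CPM in non-LRCs. All LRC libraries lay below all non-LRC libraries, an arrangement shared by 10.3% of all genes tested (18.7% had no overlap in either direction). The difference within an experiment was -0.69, -1.08 and -0.43 in log2 CPM. *Hapln1* was thus lower in LRCs in all 3 experiments, like 26.0% of all genes. The fitted log2 fold change was -0.74 (standard error, s.e., 0.18, 95% interval -1.18 to -0.29, unadjusted p = 0.00650, edgeR adjusted p = 0.114), or 1.67-fold higher in non-LRCs. DESeq2 gave -0.73 (adjusted p = 0.000995) and limma-voom -0.73 (adjusted p = 0.00867). The estimates were nearly equal, and over the 11 alternatives the adjusted p lay between 0.000995 and 0.460.

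*Acan* stood at 4317, 1869.5 and 2988 CPM in LRCs against 6523, 2929 and 3106 CPM in non-LRCs. The groups overlapped, and levels in experiment 1 were the highest of each group. Within the experiments the difference was -0.60, -0.65 and -0.06 in log2 CPM, so that experiment 3 contributed little. The fitted log2 fold change was -0.43 (s.e. 0.18, 95% interval -0.87 to 0.0024, edgeR adjusted p = 0.273). An offset for GC content and length of transcripts moved it to -0.71 (edgeR adjusted p = 0.0907), and its adjusted p lay between 0.0837 and 0.782 over the 11 alternatives.

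*Vcan*, the lectican of loose connective tissue, was rare. LRC libraries held 865, 89 and 41 of its reads and non-LRC libraries 75, 22 and 29 (experiments 1, 2 and 3), or 7.41, 4.25 and 0.954 CPM against 0.726, 0.576 and 0.584 CPM. Every LRC library was above every non-LRC library, as in 8.41% of all genes, and *Vcan* was higher in LRCs in all 3 experiments, as were 20.4% of all genes. The non-LRC libraries were close together and the LRC libraries were spread widely. Within experiments 1, 2 and 3 the ratio of LRC to non-LRC CPM was 10.2 (95% exact interval 8.05 to 13.1), 7.39 (4.59 to 12.4) and 1.64 (0.992 to 2.73), intervals that cover counting error only. The third interval spans 1 and lies below the others. The fitted fold change was 5.13 (95% interval 1.21 to 21.7), or 2.36 on the log2 scale (s.e. 0.85, unadjusted p = 0.0325, edgeR adjusted p = 0.224). DESeq2 gave 2.37 (adjusted p = 0.0277) and limma-voom 2.88 (adjusted p = 0.0256), and the adjusted p lay between 0.0256 and 0.752 over the 11 alternatives. The fitted value was 1.79 without experiment 1, 2.12 without experiment 2 and 3.14 without experiment 3.

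Beside *Vcan*, markers of superficial articular and synovial cells also differed between the groups. Of these 8 genes, 6 had a positive and 2 a negative fitted change (median 2.74 on the log2 scale), and 5 passed in edgeR, all of them upregulated in LRCs (0.903% of all genes were called in this direction; *Abi3bp*, *Cilp*, *Clu*, *Gdf5* and *Prg4*). They summed to 1539 to 3183 CPM in LRCs and 193 to 303 CPM in non-LRCs, with none at 0. The list summed to 3183, 1539 and 3083 CPM in the LRC libraries of experiments 1, 2 and 3, while *Vcan* was lowest in experiment 3. Of the 8 fibroblast and perichondrium markers tested, 7 were higher in LRCs (median 0.87), 1 passed (*Col1a1*, whose locus carries the TRE-H2B-GFP cassette), and the list summed to 4391 to 5751 CPM in LRCs and 3069 to 3716 CPM in non-LRCs. All 7 hypertrophic chondrocyte markers had a negative fitted change (median -2.35), and 4 were lower in LRCs in all 3 experiments (26.0% of all genes). *Mef2c* and *Panx3* passed, and 0.379% of all genes were called in this direction. The sums of the list were 613 to 1845 CPM in LRCs and 735 to 2548 CPM in non-LRCs. Of these, *Spp1*, with a fitted change of -0.0035, gave 398 to 1728 CPM in LRCs and 416 to 1683 CPM in non-LRCs. Of the 7 osteoblast and osteocyte markers tested, 5 were lower in LRCs (median -0.93). *Col1a1* alone passed, and it was higher in LRCs (log2 fold change 2.38). *Sost* was at 0, and the sums were 228 to 424 CPM in LRCs against 426 to 617 CPM in non-LRCs. The collagenase digestion was meant to free growth plate cells and leave most of the articular surface in place. The part of these cells in the levels of *Vcan*, *Hapln1* or *Acan* was not tested.

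*Hspg2* stood at 277, 212 and 126 CPM in LRCs against 854, 296 and 118 CPM in non-LRCs. The difference was -1.62, -0.48 and 0.10 in log2 CPM in experiments 1, 2 and 3, so that it was large in experiment 1 and of opposite sign in experiment 3. The fitted log2 fold change was -0.67 (s.e. 0.33, 95% interval -1.47 to 0.14, edgeR adjusted p = 0.349). It was -0.20 without experiment 1, -1.03 without experiment 3, -1.04 without the block and -1.12 with the correction for GC content and length. *Hspg2* had the second-longest exon sequence of the 8 genes, at 14307 bases, and the highest GC content, at 60.9%.

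*Hapln3*, a link protein of wider tissue distribution, stood at 12.6, 34.7 and 16.8 CPM in LRCs against 16.0, 14.7 and 18.6 CPM in non-LRCs. A single library, the small LRC library of experiment 2, was high, and the groups otherwise overlapped. The fitted log2 fold change was 0.24 (s.e. 0.37, 95% interval -0.66 to 1.14, edgeR adjusted p = 0.773) and turned to -0.25 without experiment 2. *Hapln3* and its neighbour *Acan* moved apart in that experiment, with differences of 1.24 and -0.65 in log2 CPM.

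The genes known from brain had low counts. *Bcan* had 180, 0 and 23 counts in LRCs against 146, 7 and 4 in non-LRCs, *Ncan* 81, 0 and 7 against 17, 3 and 6, and *Hapln4* 0, 0 and 45 against 12, 31 and 25. In the LRC library of experiment 2, where all 3 genes had 0 counts, a count of 0 allows up to 0.143 CPM. *Bcan* averaged 0.692 CPM in LRCs against 0.559 CPM in non-LRCs, with a 95% interval of the log2 fold change from -4.39 to 4.63 (edgeR adjusted p = 0.980). *Ncan* did not pass the filter and was not in the main comparison. Without the filter its log2 fold change was 0.27 (edgeR adjusted p = 0.971), and with DESeq2 it was 0.05 (unadjusted p = 0.982). Its ratio of LRC to non-LRC CPM was 4.22 in experiment 1 (95% exact interval 2.48 to 7.59), 0 in experiment 2 (0 to 4.42) and 1.35 in experiment 3 (0.388 to 4.86). For *Hapln4*, the fitted log2 fold change of -3.25 (95% interval -9.35 to 2.86, edgeR adjusted p = 0.546) rested on the 2 LRC libraries with 0 counts and is no bound on the change. Its ratio of LRC to non-LRC CPM was at most 0.318 in experiment 1 and 0.231 in experiment 2 by the upper ends of the 95% exact intervals, and was 2.08 in experiment 3 (1.25 to 3.54), so that the experiments disagreed in direction. Neither *Bcan* nor *Hapln4* passed without experiment 2, which has the smallest library (edgeR adjusted p = 0.475 and 0.760).

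**Figure D2:**
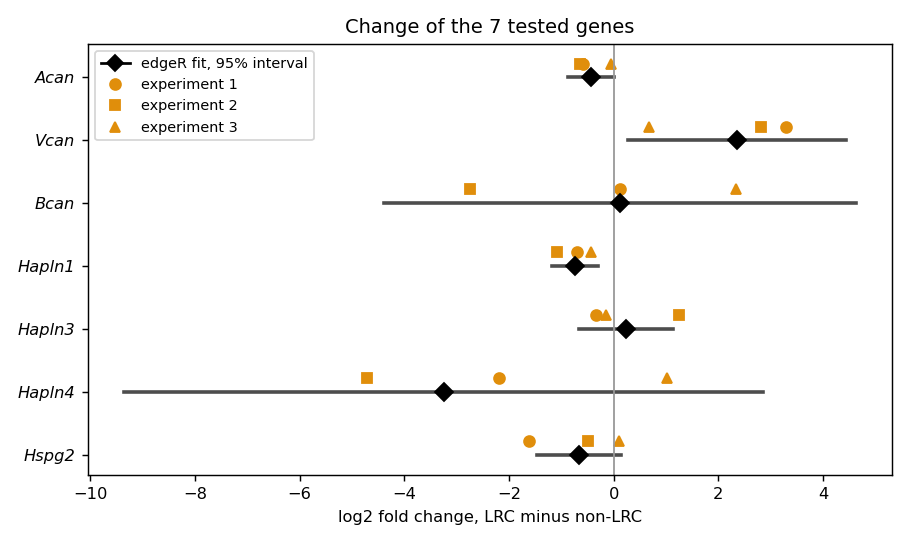
Log2 fold change (LRC minus non-LRC) of the 7 tested genes. Diamonds and bars are the edgeR fit with its 95% interval, and orange markers are the differences in log2 CPM within each experiment. The intervals of *Hapln1* (-1.18 to -0.29) and *Vcan* (0.27 to 4.44) do not include 0. They are not adjusted for the number of genes tested (edgeR adjusted p = 0.114 for *Hapln1* and 0.224 for *Vcan*).

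A ratio between genes of 1 library does not depend on how libraries are scaled. Per base, *Hapln1* RNA was 1.20, 1.89 and 1.82 times as abundant as *Acan* RNA in LRCs and 1.29, 2.56 and 2.36 times in non-LRCs of experiments 1, 2 and 3. The ratio was lower in the LRC library of every experiment, but it differed more between experiment 1 and the others than between the groups. The mean log2 difference was -0.30 ± 0.18 (s.d., *n*=3 experiments, exact sign-flip permutation test, two-sided p = 0.25, the smallest p that 3 experiments allow). The log2 ratio of *Vcan* to *Acan* differed by 3.95, 3.53 and 0.77, and all LRC libraries were above all non-LRC libraries (mean 2.75 ± 1.73, exact p = 0.25). The ratio of *Hspg2* to *Acan* differed by -1.03, 0.16 and 0.15 (mean -0.24 ± 0.68, exact p = 1). The negative mean came from experiment 1, since the differences of the other experiments were small and positive.

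**Figure D3:**
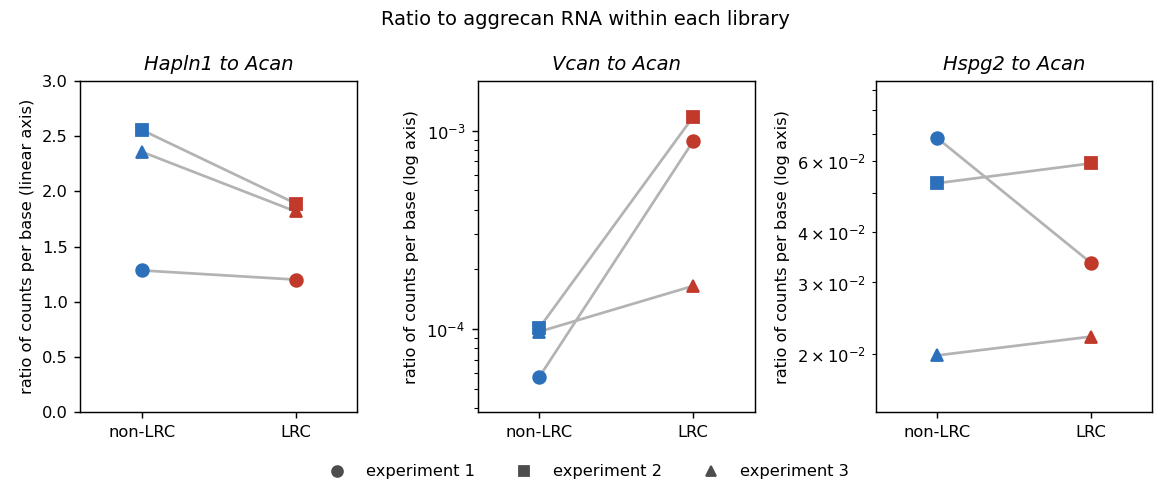
Ratio of counts per base of *Hapln1* (linear axis), *Vcan* and *Hspg2* (log axes) to those of *Acan* in each library, joined by experiment. The ratio of *Hapln1* is lower in LRCs in each experiment (log2 differences -0.10, -0.44 and -0.37), and that of *Vcan* is higher (3.95, 3.53 and 0.77).

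**Figure D4:**
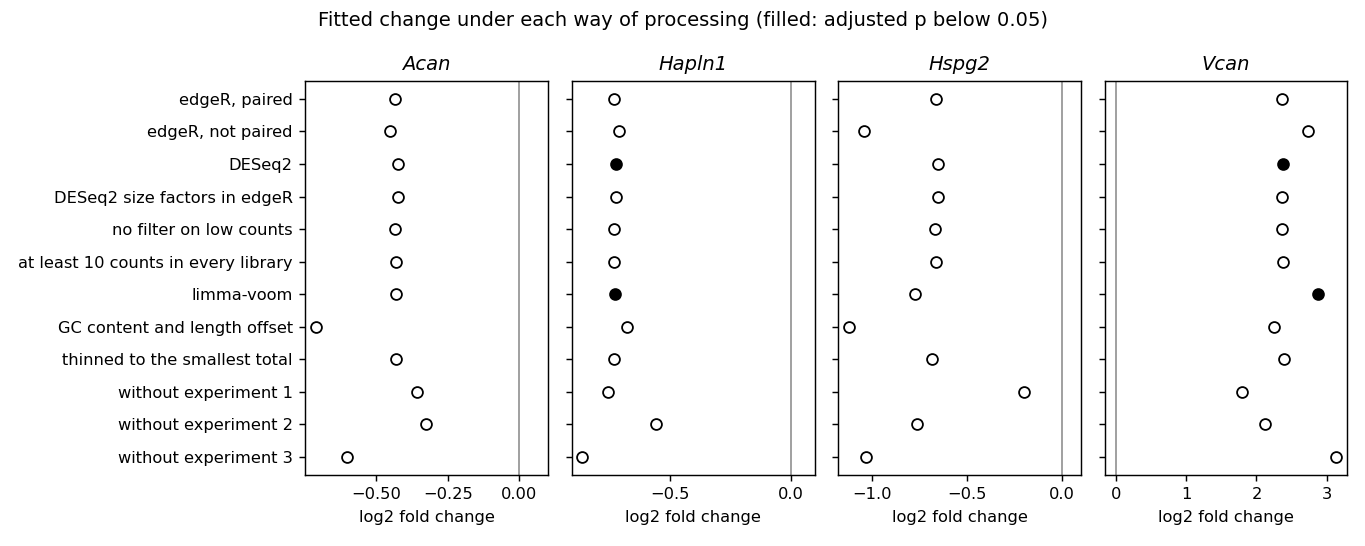
Fitted log2 fold change (LRC minus non-LRC) of *Acan*, *Hapln1*, *Hspg2* and *Vcan* under the paired edgeR fit and 11 alternatives, with filled circles where the adjusted p was below 0.05. Circles are filled for *Hapln1* and *Vcan* under DESeq2 and limma-voom only, and the 4 genes keep their sign in all 12 fits.

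The genes around the proteoglycan aggregate were described by list. Of all genes tested, 1.28% had an adjusted p below 0.05 in edgeR, 12.3% with DESeq2 and 9.91% with limma-voom. In edgeR, 18.4% had an unadjusted p below 0.05. Hyaluronan is made at the cell membrane by hyaluronan synthases, bound by CD44 and cut by hyaluronidases. Of 12 such genes tested, 9 had a positive and 3 a negative fitted change (median 0.23 on the log2 scale), and 0 passed in edgeR (4 at an unadjusted p below 0.05, and 2 with each of DESeq2 and limma-voom). *Has2*, a synthase of chondrocytes, was at 144, 70.3 and 148 CPM in LRCs against 141, 71.0 and 172 CPM in non-LRCs, and the related *Has1* had a log2 fold change of 0.50 (edgeR adjusted p = 0.301). The hyaluronan receptor *Cd44* was at 597, 760 and 418 CPM against 482, 432 and 198 CPM in non-LRCs (fitted log2 fold change 0.73, edgeR adjusted p = 0.120, and 0.00340 with DESeq2).

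Of the 10 proteases that cut lecticans and their inhibitor, 6 were higher and 4 lower in LRCs (median 0.43), and 1 passed in edgeR (1.28% of all genes). At an unadjusted p below 0.05 in edgeR, 3 were higher and 2 lower (18.4% of all genes in either direction). DESeq2 called 3 higher and 2 lower (12.3% of all genes), and limma-voom 2 higher and 2 lower (9.91% of all genes). *Mmp3*, which encodes stromelysin 1, was upregulated in LRCs, at 299.9, 337 and 396 CPM against 120, 140 and 142 CPM (log2 fold change 1.35, s.e. 0.14, edgeR adjusted p = 0.0203). The aggrecanases *Adamts4* and *Adamts5* had fitted values of opposite sign, neither past the threshold in edgeR. *Adamts5* was at 11.9, 2.39 and 16.6 CPM in LRCs against 51.1, 76.1 and 40.1 CPM in non-LRCs. All its LRC libraries lay below all non-LRC libraries, as in 10.3% of all genes tested. *Mmp3* and *Adamts4* were without overlap in the other direction, as were 8.41% of all genes. The fitted value for *Adamts5* was -2.63 on the log2 scale (edgeR adjusted p = 0.138, 9.1e-05 with DESeq2 and 0.00527 with limma-voom). Within experiments 1, 2 and 3 the difference was -2.10, -4.97 and -1.27 in log2 CPM. It was largest in experiment 2, whose small LRC library held 50 reads of this gene. *Adamts4* was at 6.46, 5.54 and 9.87 CPM against 3.86, 2.07 and 2.42 CPM. Its fitted fold change was 2.63 (edgeR adjusted p = 0.209, 0.0454 with DESeq2 and 0.102 with limma-voom), so only DESeq2 called it.

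Of the 23 genes of chondroitin sulfate synthesis and sulfation, 11 were higher and 12 lower (median -0.01). At an unadjusted p below 0.05 in edgeR, 4 were higher and 2 lower (18.4% of all genes). DESeq2 (12.3% of all genes) and limma-voom (9.91% of all genes) each called 4 higher and 1 lower. *Ust*, the uronyl 2-O-sulfotransferase, passed in edgeR with a value of 1.25 on the log2 scale (s.e. 0.18, edgeR adjusted p = 0.0440). It was at 77.8, 59.0 and 48.2 CPM in LRCs against 28.6, 28.3 and 20.4 CPM in non-LRCs. Of the 23 genes of heparan sulfate and of the pericellular partners of perlecan, 17 were higher and 6 lower (median 0.38). Over all genes tested, 6038 were higher and 7690 lower (median -0.10). At an unadjusted p below 0.05 in edgeR, 7 of the list were higher and 1 lower (18.4% of all genes). DESeq2 called 4 higher and 1 lower (12.3% of all genes), and limma-voom 5 higher and 0 lower (9.91% of all genes). *Sulf2*, which removes 6-O-sulfate groups from heparan sulfate outside the cell, was the gene of this list that passed in edgeR. It was at 345, 153 and 149 CPM against 95.5, 74.7 and 38.8 CPM (log2 fold change 1.61, s.e. 0.22, edgeR adjusted p = 0.0391). *Mmp3*, *Ust* and *Sulf2* were also past an adjusted p of 0.05 with DESeq2 and limma-voom.

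Among 9 transcription factors that act on *Acan* and *Hapln1*, 6 were higher and 3 lower in LRCs (median 0.16), and 0 passed in edgeR, DESeq2 or limma-voom, with 1 at an unadjusted p below 0.05 in edgeR. *Sox9*, the main activator of both genes, was at 2280, 1445 and 2341 CPM in LRCs against 1413, 1436 and 1452 CPM in non-LRCs (fitted log2 fold change 0.46, s.e. 0.19, edgeR adjusted p = 0.273). The sign for *Sox9* was thus opposite to that for *Acan* and *Hapln1*. Of 14 other matrix proteins found with aggrecan, 3 were higher and 11 lower (median -0.50), and 9 were lower in all 3 experiments (26.0% of all genes). In edgeR 0 passed, and 8 had an unadjusted p below 0.05 (18.4% of all genes), 3 higher and 5 lower in LRCs. DESeq2 called 4 (12.3% of all genes) and limma-voom 6 (9.91% of all genes). *Acan* (-0.43) lay close to the median of this list, and *Hapln1* (-0.74) lay below it. *Has1*, *Has2*, *Cd44*, *Adamts4*, *Adamts5* and *Sox9* were named for their known roles after their values had been seen.

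**Figure D5:**
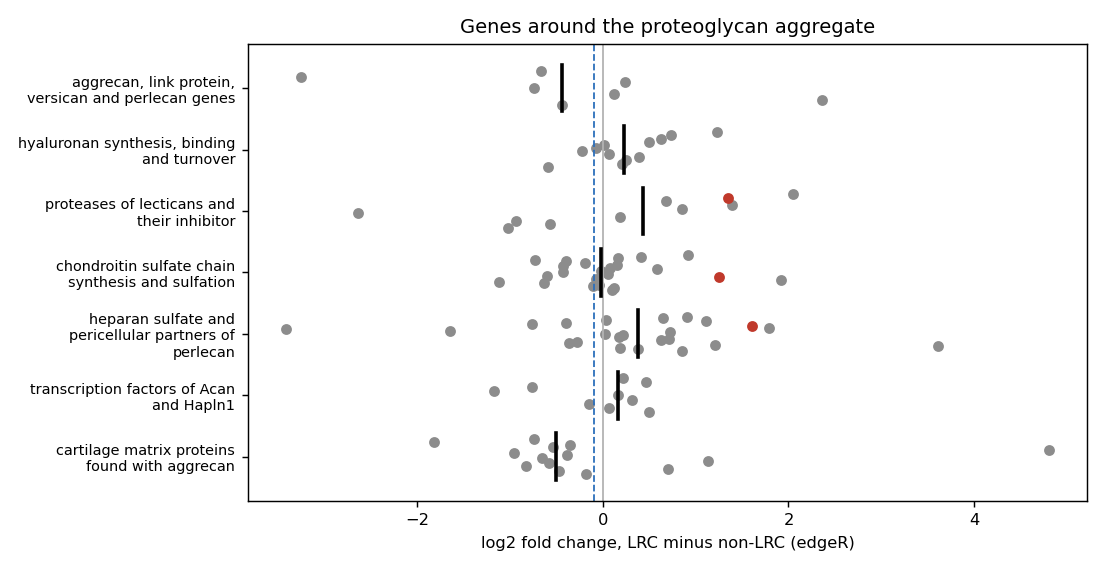
Log2 fold change (LRC minus non-LRC, edgeR) of each tested gene of the 8 genes and of 6 related lists. Red points had an adjusted p below 0.05 (*Mmp3*, *Ust* and *Sulf2*), black bars are list medians, and the dashed line is the median of all genes (-0.10).

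The genes whose 6 levels were most like those of each member were found by the root mean square distance between centred log2 CPM values, over 11932 genes of at least 1 CPM. *Tspan18* (0.08) and *Ipo7* (0.10) were closest to *Acan*, whose own values had a root mean square of 0.55 around their mean. *Ccrn4l* (0.06) and *Cluap1* (0.07) were closest to *Hapln1* (0.42), *Xpr1* (0.25) and *Myo10* (0.32) to *Hspg2* (0.95), and *Dock6* (0.11) and *Adra2c* (0.12) to *Hapln3* (0.46). For *Vcan* (1.43) the nearest genes were *Igfbp4* (0.50), at 47.0 CPM in LRCs against 7.79 CPM in non-LRCs, and *Cd74* (0.52), at 3.08 and 0.926 CPM. *Nes* and *Mcam* were nearest to *Bcan*, and *Bst1* and *Cd40* to *Hapln4*, at distances of 0.56 to 0.71.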

How the data were processed

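RNA-seq libraries of 3 LRC and 3 non-LRC samples were grouped and paired by experiment from the sample labels. Per the labels, TopHat2 2.0.13 and Bowtie2 2.2.1 were used with mm10 (GRCm38), and the authors deposited raw counts of uniquely assigned reads per gene made with HTSeq. The gene annotation is not given in the sources used here. Deposited normalized and rlog tables were not used. Tests used the counts in edgeR 4.0.16 under R 4.3.3 (filterByExpr with a minimum count of 10, TMM, quasi-likelihood test with the experiment as a block, as in the paired model of the study, Benjamini-Hochberg over 13728 genes). CPM are TMM-normalized, and differences within experiments use log2 CPM with a prior count of 2. RPKM were computed from CPM and the union of GENCODE exons.

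Same-numbered libraries deviated together from their group means (Pearson r across genes of 0.197, 0.288 and 0.336), and the study collected each pair in 1 experiment. Libraries were pools of littermates. Alternatives used DESeq2 1.42.0 and limma 3.58.1 (voom). On simulated counts with 200 changed genes (13300 to 13353 genes, 3 simulations), the edgeR fit recovered 53.1% of them with 8.66% of calls false, and DESeq2 on 13728 genes 67.5% with 36.0% false. Voom on the genes of the edgeR fit recovered 59.4% with 21.3% false. A simulated call needed an adjusted p below 0.05 and at least a 2-fold change, and every planted change was larger than that. The simulated counts were drawn with dispersions estimated by edgeR. These shares are thus no measure for calls of single genes by adjusted p alone, such as *Hapln1* with DESeq2. The 8 genes, the lists and the tests were chosen with earlier results of these data known. Named genes were the 8 genes, list genes with an edgeR adjusted p below 0.05 and the 2 most alike genes of each tested member. Outside this rule, 6 genes of known role were chosen after their values were seen. So were some markers at 0 counts (*Cdh5*, *Kdr*, *Emcn*, *Hba-a1* and *Sost*) or with a large part of a list sum (*Cspg4*, *S100b* and *Spp1*). *Hapln2* was named as the neighbour of *Bcan*. Intervals for ratios and limits for counts of 0 cover counting error only, since amplified reads without molecular identifiers are not independent molecules.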

Additional observations from a re-analysis of the deposited data

How the results depend on the processing

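The sign of *Acan*, *Hapln1*, *Hspg2* and *Vcan* was the same in all 11 alternatives, with log2 fold changes of -0.71 to -0.33, -0.87 to -0.56, -1.12 to -0.20 and 1.79 to 3.14. The calls of *Hapln1* and *Vcan* depended on the tool. They passed an adjusted p of 0.05 with DESeq2 (-0.73 and 2.37) and limma-voom (-0.73 and 2.88), and in no other alternative that was run. *Hapln1* was at 0.0544 with at least 10 counts in every library. *Bcan* turned negative with DESeq2 (-0.0180), with the correction for GC content and length (-0.0202) and without experiment 3 (-1.52), which was the lowest leave-out value, the highest being 1.23. *Hapln3* turned negative without experiment 2 (-0.25, against 0.54 without experiment 1), and the *Hspg2* to *Acan* ratio turned positive without experiment 1 (0.16, against -0.44 without experiment 2). *Hapln4* lay between -4.62 and -0.43. *Ncan* did not pass the filter of the paired edgeR fit, and lay between 0.05 and 1.31 in the 4 alternatives that could be fitted. Its edgeR adjusted p was 0.581 to 1 there, and DESeq2 gave none. *Bcan* and *Hapln4* could not be fitted where they failed a filter.

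Over all genes, 166 genes passed edgeR with the threshold of 0.05 and at least a 2-fold change. It was 1 without the block for the experiment, 799 with DESeq2, 434 with at least 10 counts in every library and 621 with limma-voom, and 35 to 555 when an experiment was left out (35 without experiment 1, 555 without experiment 2). The count was 144 to 221 under the other alternatives. None of the 7 genes was called in edgeR with or without the block. Without it, *Hapln1* had -0.71 (edgeR adjusted p = 0.460, against 0.114 with the block) and *Vcan* 2.74 (0.368, against 0.224). On the simulated counts the fit without the block recovered 0% of the changed genes, so it cannot show whether pairing matters for these calls. The causes of the differences between fits were not tested. A count of 0 in the LRC library of experiment 2, the shallowest, allows up to 0.143 CPM.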
